A study of Mus musculus with 6 samples.

Results

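The genes described here encode 8 giant or giant-related proteins that tie membranes, filaments and nuclei together: Ahnak and Ahnak2, the spectraplakins Macf1 and Dst, the plakin Plec, the nesprins Syne1 and Syne2, and Utrn. They were picked by name from a count table of 27179 Entrez Gene identifiers, with results of the same comparison already in view, Ahnak2 having stood among the largest increases. Their differences between the groups are therefore given as a description, without a test. All 8 were found in the table, and all 8 passed the filter on low counts that left 14199 genes. The RNA was poly(A) selected and came from mouse embryonic stem cells on the ES-E14TG2a background, kept in 2i + Lif medium, which holds such cells in a naive pluripotent state. Both groups carried FLAG-tagged Trim71, a TRIM-NHL protein that binds RNA: one group the R783H form, a change that the series title links to hydrocephalus, and the other the wild-type (WT) form. Each group had 3 libraries, lettered A, B and C. Whether these letters mark clones, cultures or library preparations is not in the labels, so any p-value here measures the spread between these libraries.

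As background, cytoskeletal linkers are modular proteins with binding sites for different filament systems at their ends. Ahnak is a scaffold found under the plasma membrane, where it binds the S100a10-Anxa2 complex, and Ahnak2 is its relative. Macf1 and Dst join actin filaments to microtubules, and some Dst forms anchor intermediate filaments at hemidesmosomes. Plec cross-links intermediate filaments with actin and with membrane junctions. Syne1 and Syne2 sit in the outer nuclear membrane and bind SUN proteins through a C-terminal KASH domain, which couples the nucleus to the cytoskeleton. Utrn, the autosomal relative of dystrophin, links actin to the dystroglycan complex at the membrane. Each of these genes has several annotated transcripts of different lengths, from 4 for Ahnak2 to 22 for Plec, and counts per gene cannot tell them apart.

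Library totals ran from 20894277 to 25174121 counts in WT and from 27807385 to 29079670 in R783H, so every R783H library was the deeper. One library stood apart: R783H B differed from A and C by a chi-square of 10.6 and 11.6 per degree of freedom, against 2.12 between A and C and 1.95 to 4.28 within WT. Values without it are given below where it matters. The 10 embryonic stem cell markers summed to 7413 to 7553 CPM (counts scaled to library size) in R783H and 7679 to 7753 CPM in WT, ranges that do not overlap. In edgeR's quasi-likelihood test at an adjusted p under 0.05, 4 of them were lower, with log2 fold changes from -0.67 in Utf1 through -0.36 in Zfp42 and -0.23 in Nanog to -0.21 in Pou5f1. Dppa5a (0.30) and Tfcp2l1 (0.17) were higher. With the length and GC offset described below, Pou5f1 was not called and Tfcp2l1 was lower, at -0.17. Utf1, Zfp42 and Nanog were then lower at -0.36, -0.32 and -0.22, and Dppa5a was higher at 0.40.

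The gene models of the 8 differ widely in length and exon number. On the build mm10, which the submitters' processing notes name, the GENCODE M21 annotation gives longest transcripts from 5443 nt for Ahnak2 to 27908 nt for Syne1. Ahnak (chromosome 19, 8989284 to 9076914, plus strand) holds 96.7% of its 18100 nt transcript in a single exon of 17498 nt. Ahnak2 (chromosome 12, 112772194 to 112802657, minus strand) has a longest transcript of just 1 exon, while the union of its annotated exons covers 14163 nt, so its length is the least certain of the set. Macf1 (chromosome 4, 123349633 to 123684360, minus strand) and Dst (chromosome 1, 33908225 to 34308661, plus strand) have 98 exons each, in transcripts of 23495 and 23279 nt. Plec (chromosome 15, 76170974 to 76232574, minus strand) has 33 exons in 15455 nt, and its GC content of 61.3% is the highest of the 8. Syne1 (chromosome 10, 5020917 to 5551482, minus strand) has 146 exons, the most of the set. Syne2 (chromosome 12, 75818134 to 76110926, plus strand) has 115 exons in 21704 nt, and Utrn (chromosome 10, 12382188 to 12869365, minus strand) has 74 in 12382 nt. Coding sequence made up 83.1% to 95.4% of each longest transcript.

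No pair among the 8 genes shared a stretch of at least 100 nt at 98% identity. The longest aligned stretch between Macf1 and Dst was 5066 nt at 67.3% identity, between Syne1 and Syne2 1258 nt at 73.8%, and between Utrn and Dmd 1939 nt at 71.2%. No stretch aligned between the longest transcripts of Ahnak and Ahnak2. Dst shares 1037 and 456 nt of exon sequence with Gm26788 and A930005N03Rik on the opposite strand, and stretches of at least 100 nt at 98% identity with 4 annotated genes, these included. Plec shares 205 nt with Parp10 and Syne2 10 nt with Mir5101, both on the same strand. Counts of Dst, Plec and Syne2 are uncertain to that extent. For the opposite-strand overlaps of Dst the strand setting of the counting, which is not given in the sources used here, would decide it. Gfer and AC116841.1, the other genes with near-identical stretches, share no exon position with Dst, and their part in its counts was not tested.

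Start-site windows of 300 bases (250 before and 50 after the start, RefSeq on GRCm38.p6) were at hand for 7 of the 8 genes, 10 windows in all. The 4 printed here are those of Ahnak, of its relative Ahnak2, and of the first of 2 listed Dst starts and of Syne2, the next largest differences between the groups. Capitals mark letters of 6 searched motifs on either strand: GGGCGG (GC box), CCAAT (the NF-Y box), TATAAA (the box bound by TBP), GGAATG (TEAD site), CACGTG (E-box) and TGACTCA (AP-1 site).
Ahnak, chr19:8989034-8989333, plus strand: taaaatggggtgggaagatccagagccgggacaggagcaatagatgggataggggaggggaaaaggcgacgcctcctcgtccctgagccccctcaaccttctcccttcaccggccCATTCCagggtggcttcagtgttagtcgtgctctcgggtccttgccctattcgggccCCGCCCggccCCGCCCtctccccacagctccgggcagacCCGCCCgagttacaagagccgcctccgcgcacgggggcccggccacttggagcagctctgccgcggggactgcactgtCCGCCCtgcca
Ahnak2, chr12:112795693-112795992, minus strand: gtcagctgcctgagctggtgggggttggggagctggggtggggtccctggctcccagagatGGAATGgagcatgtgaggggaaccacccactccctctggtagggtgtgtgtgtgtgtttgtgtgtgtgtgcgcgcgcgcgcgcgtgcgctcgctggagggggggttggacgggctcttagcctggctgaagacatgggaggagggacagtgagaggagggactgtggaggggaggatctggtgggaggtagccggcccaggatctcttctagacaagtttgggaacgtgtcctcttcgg
Dst, chr1:34011345-34011644, plus strand: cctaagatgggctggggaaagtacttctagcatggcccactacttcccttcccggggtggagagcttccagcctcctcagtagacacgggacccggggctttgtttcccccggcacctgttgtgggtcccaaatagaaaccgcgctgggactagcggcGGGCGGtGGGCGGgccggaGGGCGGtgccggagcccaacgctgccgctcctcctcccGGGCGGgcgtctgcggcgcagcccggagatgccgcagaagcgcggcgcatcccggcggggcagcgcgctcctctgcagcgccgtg
Syne2, chr12:75818068-75818367, plus strand: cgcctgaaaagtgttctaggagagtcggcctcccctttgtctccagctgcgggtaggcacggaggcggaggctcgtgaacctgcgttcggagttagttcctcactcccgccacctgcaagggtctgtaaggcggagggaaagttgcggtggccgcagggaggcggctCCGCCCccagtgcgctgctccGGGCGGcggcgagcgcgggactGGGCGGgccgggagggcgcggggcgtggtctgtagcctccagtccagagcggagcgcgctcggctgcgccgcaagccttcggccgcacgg

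The windows do not look alike. Ahnak, Dst and Syne2 have 22, 31 and 35 CpG dinucleotides with 4, 4 and 3 GC boxes, whereas the Ahnak2 window has 13 CpG dinucleotides and no GC box. Over all 32851 windows of this length the median was 7 CpG dinucleotides, and 35.7% held a GC box, against 4 of the 10 windows of these genes. GGAATG was in 4 of the 10 (Ahnak, Ahnak2, Macf1 and 1 Syne1 start) and in 14.7% of all windows. A match is a string of letters and not a bound site.

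All 8 genes stood higher in R783H, and in all 8 the lowest R783H library was above the highest WT library in CPM. Over all tested genes, CPM of the groups did not overlap in 68.1%, with R783H higher in 35%. The choice of genes used this contrast, so the count of 8 is a description. The differences ran from 1.14-fold in Plec to 8.79-fold in Ahnak2. The median log2 fold change of the 8 was 0.93, against 0.03 over all 14199 tested genes. Together the 8 genes took 0.193% to 0.243% of a library's counts in R783H and 0.106% to 0.117% in WT.

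**Figure D1:**
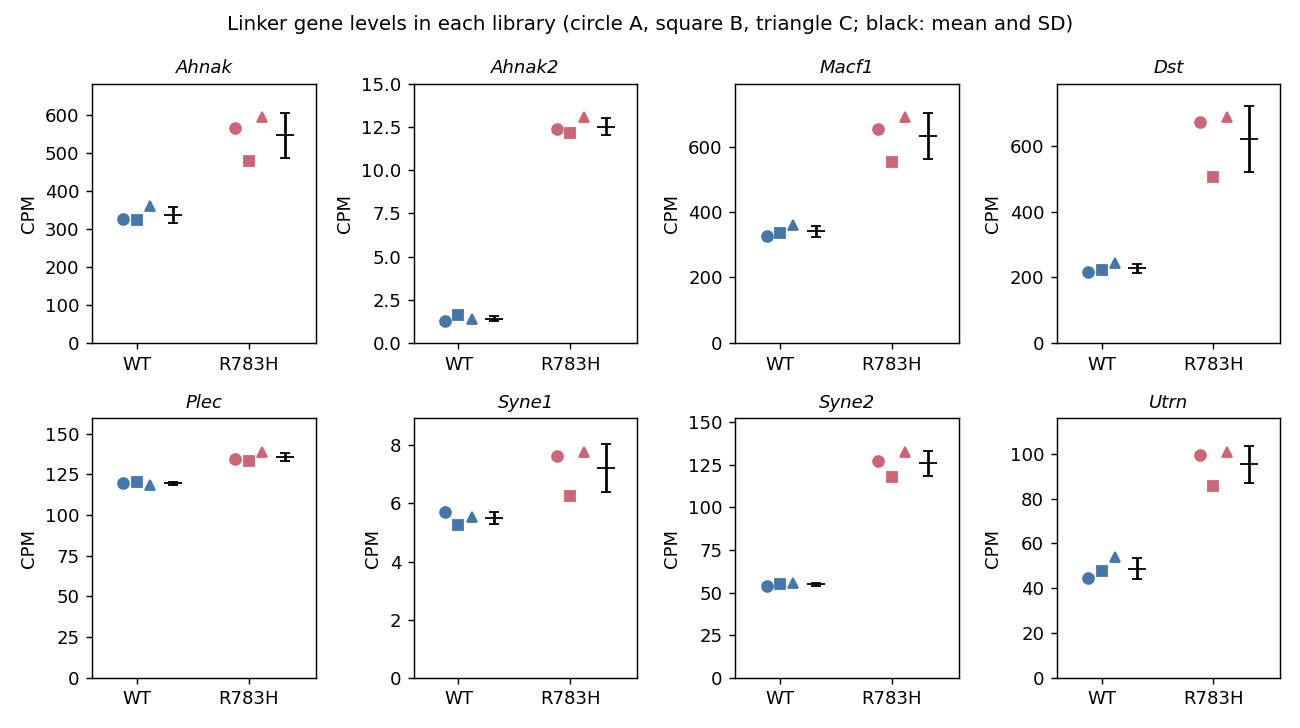
CPM after TMM scaling of each linker gene in the 3 WT and 3 R783H libraries, on linear axes from 0, with the mean and SD of each group in black. In each panel the groups do not overlap, and in R783H the square of library B is the lowest of the 3 points.

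Ahnak was among the well-counted members. Libraries A, B and C of R783H gave it 17061, 13638 and 17614 counts, and those of WT 6612, 7958 and 7729. This corresponds to 568, 481 and 595 CPM against 327, 324 and 362 CPM. R783H B was the lowest mutant library, at 1.33 times the highest WT library. The means were 548 ± 59.6 and 338 ± 21.0 CPM (SD, n = 3 each), a log2 fold change of 0.70 (SE 0.07).

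Ahnak2 was scarce in WT and showed the largest difference of the 8. WT A, B and C had 26, 39 and 29 counts, and R783H A, B and C had 372, 345 and 387. In CPM these were 1.29, 1.59 and 1.36 against 12.4, 12.2 and 13.1. The 3 libraries of each group lay close together and far from the other group, with the lowest R783H library at 7.65 times the highest WT library. The log2 fold change was 3.14 (SE 0.12), the eighth largest increase of 14199 genes. The level of Ahnak2 was far below that of Ahnak in every library, and in WT it lay above the 3 counts (0.103 to 0.144 CPM) taken as the floor of detection.

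The spectraplakins had 4390 to 20411 counts per library, with Dst below Ahnak in every WT library. Macf1 stood at 654, 553 and 689 CPM in R783H A, B and C and at 328, 335 and 360 CPM in WT A, B and C, a log2 fold change of 0.89 (SE 0.07). Dst stood at 673, 504 and 687 CPM against 217, 221 and 243 CPM, a log2 fold change of 1.45 (SE 0.10). In both genes the WT libraries lay close together, at 341 ± 16.9 and 227 ± 14.0 CPM, and R783H B was well below R783H A and C. Macf1 exceeded Dst in every WT library, while in R783H their means were 632 ± 70.8 and 621 ± 102 CPM.

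Plec, the plakin linker of intermediate filaments, differed least. It stood at 135, 133 and 139 CPM in R783H A, B and C and at 119.9, 120.2 and 118.3 CPM in WT A, B and C. The groups did not overlap, but the lowest R783H library was just 1.11 times the highest WT library. The log2 fold change was 0.18 (SE 0.04), with 61.8% of tested genes showing a smaller one.

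The nesprins differed from each other in both level and change. Syne2 stood at 127, 118 and 132 CPM in R783H A, B and C and at 53.7, 54.96 and 55.6 CPM in WT A, B and C, a log2 fold change of 1.20 (SE 0.05). Its WT libraries had an SD of 0.954 CPM, and the lowest R783H library was 2.13 times the highest of them. Syne1 had 229, 178 and 230 counts in R783H and 115, 129 and 118 in WT, or 7.62, 6.27 and 7.76 CPM against 5.69, 5.26 and 5.53 CPM. R783H B lay at 1.10 times the highest WT library. The log2 fold change of Syne1 was 0.40 (SE 0.11).

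Utrn stood at 99.5, 85.7 and 101 CPM in R783H A, B and C. In WT A, B and C it was at 44.6, 47.9 and 53.7 CPM, so the groups lay well apart despite some spread within each. The log2 fold change was 0.97 (SE 0.08). Its relative Dmd, which encodes dystrophin and was not among the 8, rose by 1.18 (SE 0.10) on the log2 scale, to 44.6 ± 5.82 from 19.7 ± 1.54 CPM (SD, n = 3 each), with an adjusted p of 1.57e-06 in edgeR's quasi-likelihood test.

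Levels of different genes were compared per kb of longest transcript. In WT the order was Ahnak at 18.7 ± 1.16 CPM per kb, Macf1 at 14.5 ± 0.721, Dst at 9.77 ± 0.600, Plec at 7.73 ± 0.0662, Utrn at 3.94 ± 0.373, Syne2 at 2.52 ± 0.0439, Ahnak2 at 0.259 ± 0.0291 and Syne1 at 0.197 ± 0.00785 (SD, n = 3). No neighbours in that order overlapped in WT. In R783H the order was the same, with Ahnak at 30.3 ± 3.29, Macf1 at 26.9 ± 3.01 and Dst at 26.7 ± 4.37 CPM per kb, and these 3 overlapped as neighbours. The remaining R783H levels per kb were 8.77 ± 0.173 for Plec, 7.70 ± 0.674 for Utrn, 5.80 ± 0.333 for Syne2, 2.30 ± 0.0870 for Ahnak2 and 0.259 ± 0.0295 for Syne1. Against all tested genes with a length, the WT level of Ahnak per kb lay above 69.9% and that of Syne1 above 5.5%. Some neighbours changed places in WT when the union of annotated exons served as the length: Plec at 6.60 then exceeded Dst at 5.52 CPM per kb, and Syne1 at 0.136 exceeded Ahnak2 at 0.0997.

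**Figure D2:**
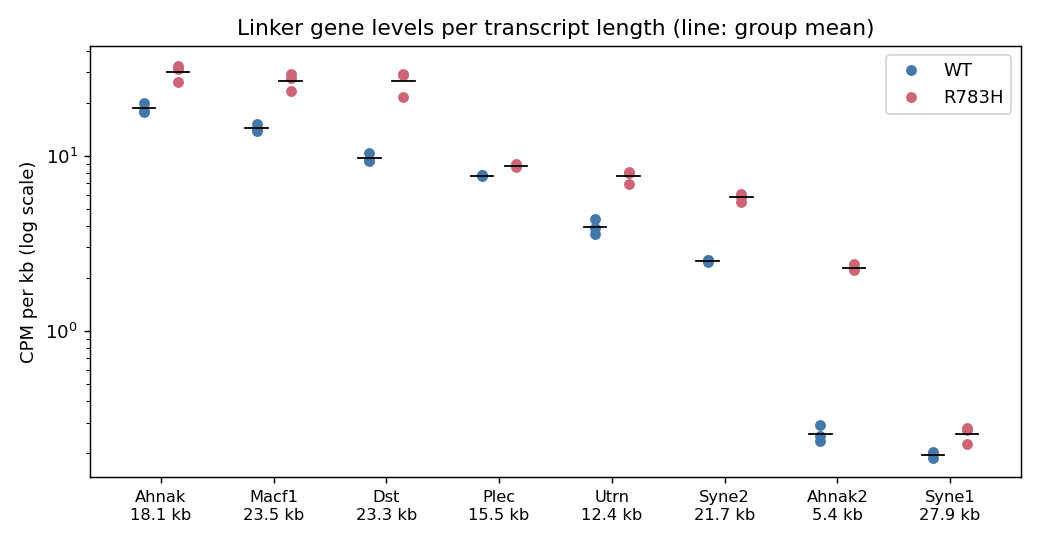
CPM per kb of the longest annotated transcript for each linker gene on a log axis, ordered by the WT mean, with a point per library and a line at each group mean. Ahnak is highest and Syne1 lowest in both groups, and the 3 highest genes overlap in R783H but not in WT.

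Transcript length has to be read beside these values, because fold changes across the whole table followed it. Over 13067 genes with a length, Spearman's rho between log2 fold change and length was 0.256, a description across genes, which are not independent replicates. The 314 other tested genes with a transcript of at least 10000 nt had a median log2 fold change of 0.40. Of these, 62.1% were called higher and 10.8% lower at an edgeR adjusted p under 0.05, where 33.5% and 30.9% of all tested genes were called. All linker genes but Ahnak2, at 5443 nt, have transcripts of that length. Among those 314 long genes, 75.8% had a smaller fold change than Ahnak, 86.6% than Macf1, 97.1% than Dst, 94.9% than Syne2 and 88.9% than Utrn. Syne1 lay at 50% and Plec at 32.2%, that is, at and below the middle of the long genes. Within the 8 genes Spearman's rho between fold change and length was -0.31 (n = 8, a description). That value leans on Ahnak2, which had the largest fold change and the shortest and least certain length. No value was taken without it.

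**Figure D3:**
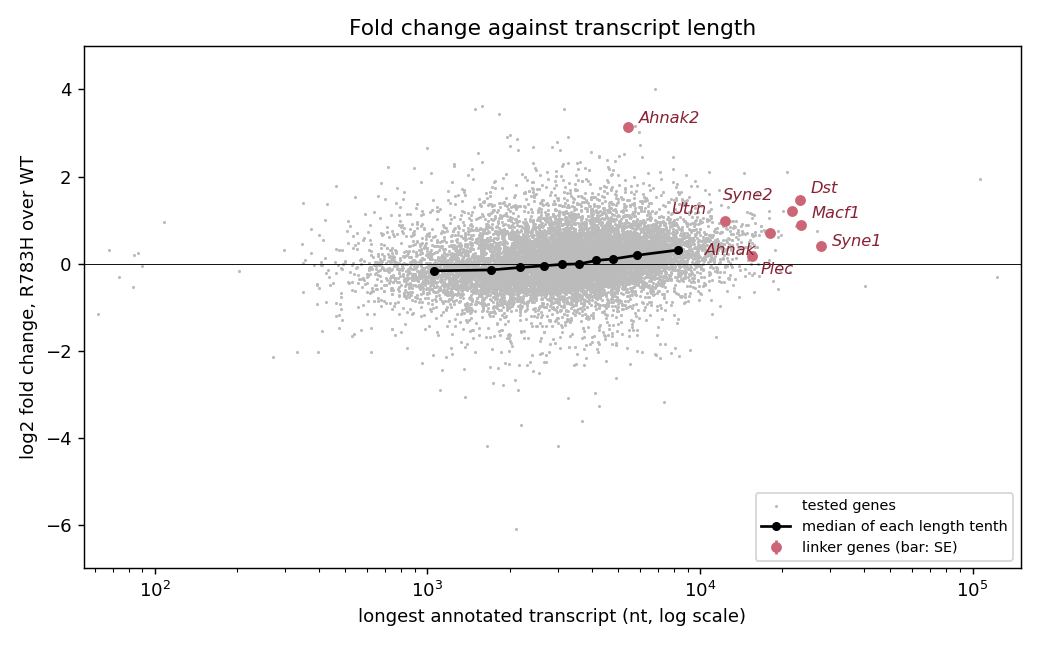
Log2 fold change of R783H over WT against the length of the longest annotated transcript on a log axis, for 13067 tested genes in grey, the median of each 10% of genes by length in black and the 8 linker genes in red with their SE. The medians climb from -0.17 in the shortest 10% to 0.31 in the longest, with Ahnak2 far above them and Plec and Syne1 near the other long genes.

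When an offset for transcript length and GC content was fitted in each library, the median log2 fold change of the 314 long genes went to 0.0033. This offset removes whatever differs between the groups along length, whether it arose in the cells or in the preparation, and these cannot be told apart here. Under it Ahnak2 stayed at 3.04 (SE 0.12). For Ahnak2 the offset took the longest transcript of 5443 nt, where its annotated exons together cover 14163 nt, so its small shift depends on that length. Dst was at 0.92 (SE 0.06), Syne2 at 0.69 (SE 0.04), Utrn at 0.56 (SE 0.05), Macf1 at 0.36 (SE 0.04) and Ahnak at 0.21 (SE 0.04). Plec and Syne1 changed sign, to -0.10 (SE 0.03) and -0.15 (SE 0.10). The order of the 6 genes that remained higher was the same with and without the offset.

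**Figure D4:**
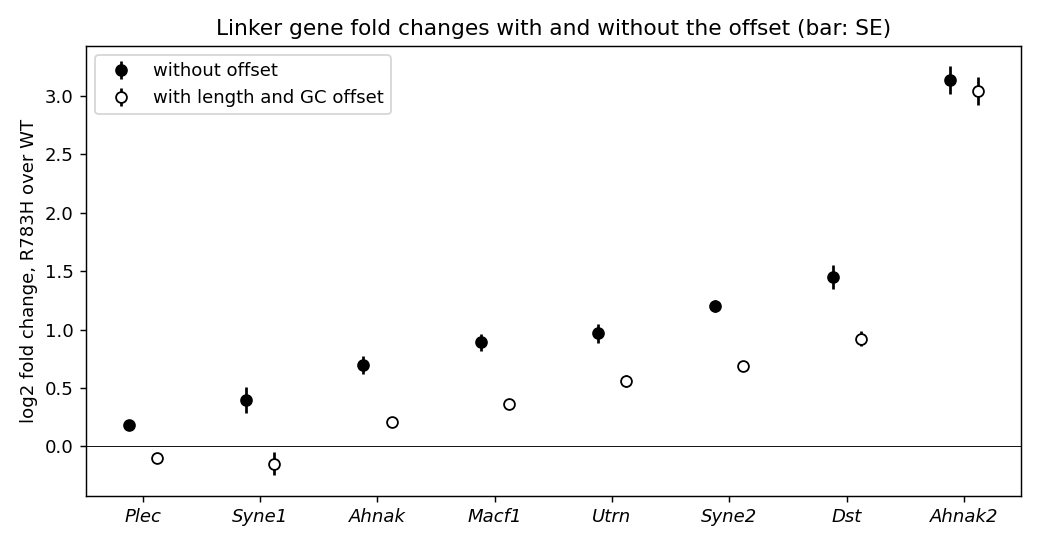
Log2 fold change of R783H over WT for each linker gene without the offset (filled) and with the length and GC offset (open), bars showing the SE. The 7 long genes move down by 0.29 to 0.54, which puts Plec and Syne1 below 0, while Ahnak2 moves from 3.14 to 3.04. The offset used the longest transcript of each gene, a length that is least certain for Ahnak2.

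Length also went with differences between replicates of the mutant group. In log2 CPM, R783H B lay below the mean of R783H A and C in all 8 genes. The difference was -0.43 in Dst, -0.29 in Syne1, -0.28 in Macf1, -0.27 in Ahnak, -0.22 in Utrn, -0.14 in Syne2, -0.065 in Ahnak2 and -0.034 in Plec. The same difference had a median of -0.18 over the other 314 long genes and 0.10 over the shortest 10% of genes. In WT the library lying highest by the median was C. Its difference from the mean of A and B was nonetheless -0.073 in Ahnak2 and -0.021 in Plec. In Syne1, WT C lay below WT A, at 5.53 against 5.69 CPM. The median of the WT C difference was 0.08 over the 8 genes and 0.09 over the 314 long genes. The part of this in the group differences was not tested, though without R783H B the log2 fold changes were 0.76 for Ahnak, 3.13 for Ahnak2, 0.96 for Macf1, 1.56 for Dst, 0.17 for Plec, 0.46 for Syne1, 1.22 for Syne2 and 1.02 for Utrn, lower than with all libraries in Ahnak2 and Plec and higher in the other 6.

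Genes that work with the linkers, or resemble them, and giant proteins that are not linkers were tested with edgeR's quasi-likelihood method. Of all tested genes 64.5% were called, 33.5% higher and 30.9% lower. Among the 314 tested genes of at least 10000 nt outside the 8, 62.1% were higher and 10.8% lower. Of the 101 genes in these 8 lists 94 were tested, and 59 (62.8%) were called higher and 15 (16%) lower. With the length and GC offset the counts were 45 and 23. Without the offset the 24 non-linker giants gave 22 of the 59 higher calls and none of the 15 lower ones. These shares are therefore not those of the partners and relatives alone. Of the list and marker genes with values printed here, Dsp, Eppk1, Anxa2, Prx, Sun1, Sun2, Emd, Dtna, Sptb, Nefl, Des, Krt8, Itgb4, Clip2, Hmcn1, Ttn, Pou5f1, Tfcp2l1, Col3a1, Gata6 and Sox17 share exon sequence with another annotated gene. Their counts are uncertain to that extent.

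Among the 4 other plakins, 2 rose and 1 fell. Dsp, encoding desmoplakin of desmosomes, rose by 1.90 (SE 0.06), with 69.3 ± 3.30 CPM in place of 18.6 ± 0.669 (SD, n = 3) and an edgeR adjusted p of 9.22e-09. Ppl, encoding periplakin, rose by 1.54 (SE 0.17), and Evpl, encoding envoplakin, which pairs with periplakin in the cornified envelope, changed by -0.67 (SE 0.13). Eppk1, encoding epiplakin, was at -0.05 and was not called, but under the length and GC offset its value was -0.38, called lower (edgeR adjusted p 0.0439), which made 2 higher and 2 lower.

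Of the Ahnak partners and its relative Prx, 5 were tested and 3 rose. Anxa2, whose protein forms a complex with S100a10 at the membrane, rose by 1.02 (SE 0.09), with 87.0 ± 11.8 CPM in place of 43.0 ± 2.17. S100a10 itself, at 80.3 ± 7.55 CPM in the mutant and 86.6 ± 2.49 CPM in WT, was not called (edgeR adjusted p 0.164) and overlapped between the groups. Myof, encoding the membrane-repair protein myoferlin, rose by 0.85 (SE 0.04) to 248 ± 4.77 CPM. Prx, encoding periaxin, rose by 0.22 (SE 0.07, edgeR adjusted p 0.0126), a call lost with the length and GC offset (edgeR adjusted p 0.0567) and without WT B (edgeR adjusted p 0.0552).

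The LINC complex and nuclear lamina list had 5 of 11 genes lower, 2 higher and a median of -0.15, where 30.9% of all tested genes were lower and 33.5% higher. Sun1, a SUN protein that receives the nesprin KASH domain across the nuclear envelope, rose by 0.61 (SE 0.04), with 262 ± 5.81 CPM in place of 172 ± 1.34. Sun2, its relative, stood at 29.5 ± 0.734 and 30.1 ± 2.03 CPM and was not called. Syne3, a nesprin that binds plectin, rose by 1.09 (SE 0.19) to a mean of 2.26 CPM. Syne4 was at 0.02 (SE 0.11) and not called, with a sign that changed when R783H A or R783H B was left out, and with the offset it was at 0.23 and called higher (edgeR adjusted p 0.0455). The lamins fell together: Lmnb2 changed by -0.56 (SE 0.05), Lmnb1 by -0.55 (SE 0.04) and Lmna by -0.44 (SE 0.05). Emd, encoding the inner nuclear membrane protein emerin, changed by -0.43 (SE 0.06). With the offset the 5 lower genes and the 2 higher ones kept their calls, and Syne4 made 3 higher.

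In the dystrophin-glycoprotein complex 10 of 14 genes were tested, 6 rose and 1 fell. Besides Dmd, the syntrophin gene Sntb1 rose to 3.94 ± 1.19 from 1.399 ± 0.142 CPM and the dystrobrevin gene Dtna to 5.93 ± 0.596 from 2.20 ± 0.114 CPM. Dag1, which encodes the dystroglycan that utrophin and dystrophin bind, rose by 0.44 (SE 0.04), with 279 ± 5.97 CPM in place of 206 ± 3.38. With the offset the 6 higher genes kept their calls, Dmd at 0.72 and Dag1 at 0.27, while the 1 lower gene was not called and Sntb2 was called lower, at -0.39.

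Spectrins, ankyrins and actin linkers counted 12 higher and 2 lower among 18 tested. Sptb, encoding an erythroid-type beta spectrin, rose by 1.70 (SE 0.10), to 16.1 ± 0.952 from 4.99 ± 0.518 CPM, and Ank3, encoding the membrane adaptor ankyrin-G, by 0.94 (SE 0.06). Flnc, which encodes an actin cross-linking filamin, changed by -0.86 (SE 0.10), and Flna, its relative, was at -0.06 and not called. With the offset the list counted 9 higher and 4 lower, Ank3 was at 0.58, and Flna was lower, at -0.34 (edgeR adjusted p 1.83e-05).

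Among genes of intermediate filaments and the hemidesmosome, the structures that plectin and Dst anchor, 4 of 10 tested rose and 2 fell. The hemidesmosomal integrin genes Itgb4 and Itga6 rose by 0.90 (SE 0.08) and 0.59 (SE 0.05). Krt19, a simple-epithelial keratin gene, rose by 1.32 (SE 0.22) to a mean of 3.82 CPM and the neurofilament gene Nefl by 0.90 (SE 0.06). Krt8 and Krt18, also simple-epithelial keratin genes, were at -0.01 and -0.17 and were not called. Vim, encoding vimentin, changed by -0.55 (SE 0.05) and Des, encoding desmin, by -0.60 (SE 0.10). With the offset these 6 calls were kept, and Nes, encoding nestin, was also lower, at -0.29.

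All 12 microtubule-end partners of the spectraplakins were called, 8 higher and 4 lower. Mapre3, encoding the plus-end protein EB3, rose by 1.71 (SE 0.21) to a mean of 4.34 CPM, while Mapre1 and Mapre2 of the same family changed by -0.29 (SE 0.04) and -0.52 (SE 0.05). Apc, which binds microtubule ends and restrains Wnt signalling, rose by 0.57 (SE 0.10), and the linker gene Clip2 changed by -0.61 (SE 0.13). With the offset the split was 5 higher and 5 lower, with Apc at 0.15 and Mapre1 at -0.56, and Camsap1, which encodes a protein of microtubule minus ends, went from higher at 0.12 to lower at -0.16.

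A list of 24 giant proteins that are not linkers served as the counterpart in size, with a median transcript of 15060 nt. Of these 22 rose, none fell (0 at an unadjusted p under 0.05 in edgeR and 0 in DESeq2), and the median was 0.58. Ttn, encoding titin, rose by 1.94 (SE 0.13), to 42.1 ± 7.65 from 10.95 ± 0.959 CPM, Hmcn1, encoding a matrix protein, by 1.06 (SE 0.24) to a mean of 1.17 CPM, and Dync2h1, the motor of retrograde ciliary transport, by 0.91 (SE 0.11). With the offset 14 were higher and 3 lower, the median was 0.16, Ttn was at 1.23 and Dync2h1 at 0.47, and Hmcn1, at 0.58, was not called (edgeR adjusted p 0.0553). The linker genes Ahnak2, Dst, Syne2, Utrn, Macf1 and Ahnak had fold changes above the median of these giants, and Plec and Syne1 below it.

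**Figure D5:**
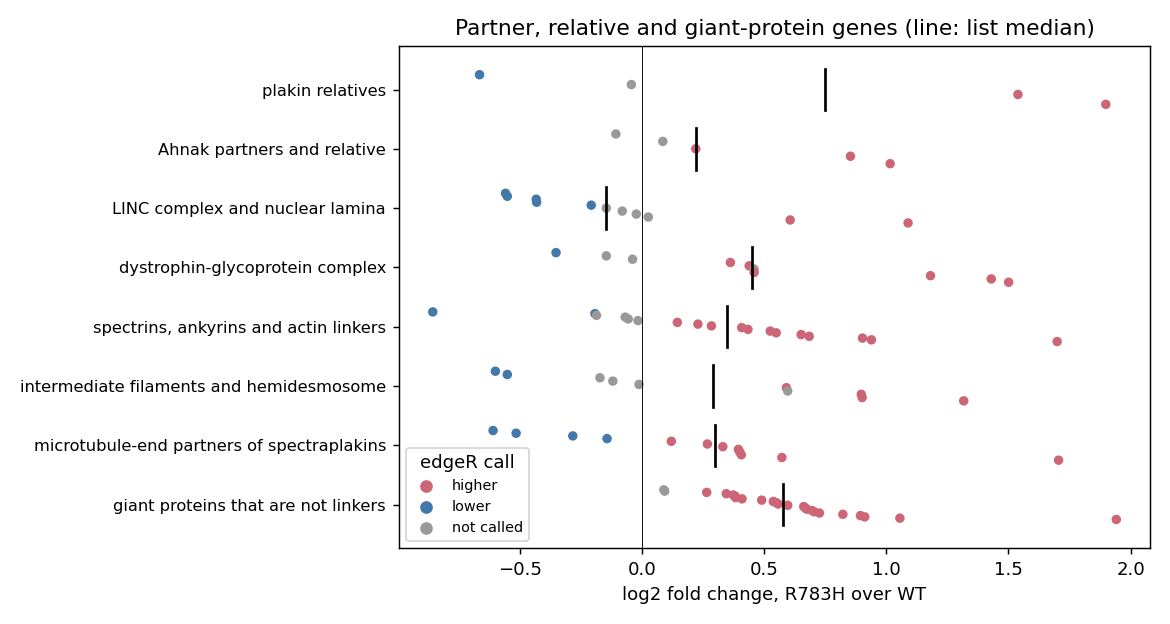
Log2 fold change of R783H over WT of each tested gene in the 8 lists of partners, relatives and other giant proteins, coloured by the edgeR call, with a line at each list's median. The LINC and lamina list has a median of -0.15, the other 7 lists lie between 0.22 and 0.75, and the non-linker giants have no gene called lower.

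Markers of other cell types were set beside these values, since linkers and plakins are also abundant in epithelial, mesenchymal and endodermal cells. In bulk RNA a larger share of such cells cannot be told apart from more RNA per cell. The 8 fibroblast and mesenchyme markers summed to 12.9 to 13.4 CPM in R783H and 11.8 to 13.3 CPM in WT. Of 5 tested genes 1 was higher and 1 lower. Most of either sum was Pdgfrb, the higher gene, at 9.39 ± 0.529 and 7.59 ± 0.608 CPM, a change of 0.30 (SE 0.09). Its call was lost with the length and GC offset (edgeR adjusted p 0.125), and DESeq2 called 0 genes of this list higher. Thy1, the lower gene, changed by -2.74 (SE 0.35) and kept its call with the offset. It had 8 counts or fewer in any R783H library and at least 25 in each WT library. Col3a1 stood at 7 counts or fewer and Acta2 at 2 or fewer in any library. The 8 trophectoderm and simple epithelium markers summed to 81.5 to 90.8 CPM in R783H and 117.8 to 118.2 CPM in WT. Of the 5 tested genes 3 were lower and none higher (0 at an unadjusted p under 0.05 in edgeR and 0 in DESeq2). Elf5 was at 2 counts or fewer in any library of either group. The 8 primitive endoderm markers summed to 271 to 280 CPM in R783H and 139 to 149 CPM in WT, with 3 of 6 tested genes higher and none lower (again 0 at an unadjusted p under 0.05 in edgeR and 0 in DESeq2). Lama1, itself a long transcript of 9526 nt, made up most of that sum, at 265 ± 4.89 and 138 ± 6.16 CPM, and it rose by 0.94 (SE 0.05). Gata4 and Sox17, transcription factors of this lineage, rose by 1.08 (SE 0.15), to 6.68 from 3.19 CPM, and by 1.29 (SE 0.29), to 0.897 from 0.369 CPM. Gata6, at 0.476 and 0.264 CPM, was not called (edgeR adjusted p 0.107). Sox7, on the same list but left out by the low-count filter and so untested, ran in the opposite direction. It reached 15, 9 and 19 counts in the WT libraries, while no R783H library exceeded 4, despite their greater depth. Foxa2, also untested, stayed at 4 counts or fewer throughout. The part of these markers in the linker values was not tested.

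Many genes shared the profile of Ahnak or of Ahnak2 over the 6 libraries, which fall into 2 separate groups, so that r here is a description of that split. Profiles of the other linker genes were not compared. By Pearson's r of log2 CPM, the tested genes most like Ahnak were Ubr1, Kdm2a and Clasp2 (r of 0.9995, 0.9991 and 0.999). Of the 14199 tested genes, 1692 had an r above 0.95 with Ahnak. Those most like Ahnak2 were Slc23a2, Lrrc31 and Prickle2 (r of 0.9996, 0.9995 and 0.9995), and 2223 of the 14199 had an r above 0.95.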

How the data were processed

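Poly(A)-selected RNA from 6 libraries, 3 R783H and 3 WT, was analysed from 1 table of raw counts per gene that the authors deposited, with 1 column per alignment file per the file headers. The submitters' processing notes list CASAVA 1.4, HISAT2, SAMtools and mm10; the counter, annotation and strand setting are not given in the sources used here. Columns were matched to samples by title, with 0 left over. Symbols came from RefSeq (GRCm38.p6; 25275 of 27179 identifiers), and lengths, GC and coordinates from GENCODE M21 on GRCm38, with 92% of tested genes having a length.

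Genes passing filterByExpr (minimum count 10, minimum total 15) were fitted in R 4.3.3 with edgeR 4.0.16, TMM factors, group as the single term, the quasi-likelihood test and Benjamini-Hochberg adjustment over 14199 genes; a gene is called at an adjusted p under 0.05. CPM are per scaled library size, log2 fold changes are R783H over WT, and the SE is the log2 fold change over the square root of F. The length and GC offset used splines with 5 degrees of freedom for each, fitted per library. DESeq2 1.42.0 was an alternative. Near-identical stretches were searched with BLAST at 98% identity over 100 nt.

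The steps were tested on data simulated for this comparison, in which 14037 genes passed the filter. Of 100 planted 2-fold changes 84 were called, and of 100 planted 1.5-fold changes 72, with 8 false calls. The offset reduced 5046 calls from a planted length trend to 0. That trend was a smooth function of length alone, which the offset is built to fit, so this checks the code and not its use on these data. Reads carry no molecular identifiers, so counting error understates the uncertainty.

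The 8 genes and all lists were chosen with earlier results of these data known. The naming rule took the 8 genes, from each list at most 3 called genes by size of change, at 1 CPM or more in the higher group, the relatives Dmd, Dsp, Syne3, Syne4 and Prx, and 3 genes most correlated with Ahnak and with Ahnak2. Other named list members (Eppk1, S100a10, Sun2, Lmnb1, Lmna, Emd, Dag1, Sntb2, Flna, Itga6, Krt8, Krt18, Vim, Des, Mapre1, Mapre2, Camsap1, Nes and the markers) were chosen after their values were seen. Values of some list members are not reported here.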

Additional observations from a re-analysis of the deposited data

How the results depend on the processing

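All 8 linker genes kept a positive log2 fold change under every alternative except the length and GC offset, which left 6 positive, with Plec at -0.10 and Syne1 at -0.15. That offset also gave the 8 genes a median of 0.46 in place of 0.93 and changed the median of the 314 other long genes from 0.40 to 0.0033 and the number of related genes called lower from 15 to 23; by construction it removes what varies with length and GC. With each library left out in turn, the median of the 8 genes ran from 0.86 to 0.99, related genes called higher from 55 to 62 and lower from 14 to 20, and the median of long genes from 0.35 to 0.43. RLE size factors, scaling by library size alone, both other filters and DESeq2 kept the member median between 0.91 and 1.01. The union of exons as length gave Ahnak in WT 16.95 CPM per kb in place of 18.68. Syne4, which was not called, ran from -0.074 without R783H B, through -0.025 without R783H A, to 0.12 without R783H C, and under the length and GC offset its value was 0.23, a call (edgeR adjusted p 0.0455). Same-letter libraries had correlations of -0.054, 0.005 and 0.067 between their deviations from the group means, and different-letter libraries from -0.108 to 0.102. With 3 libraries a group these deviations are tied to one another, so the values cannot exclude a pairing by letter. With the replicate block 9260 genes were called in place of 9152. The member median was then 0.93, and related genes counted 58 higher and 15 lower. Depth limits Ahnak2 in WT most, at 26 to 39 counts, and the Syne1 values, at 115 to 230 counts.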
